A study of Homo sapiens with 4 samples.

Results

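Long non-coding RNAs are transcripts that act as RNA rather than as templates for protein. Some build structures in the nucleus, some carry small nucleolar RNAs (snoRNAs) in their introns and are cleared from the cytoplasm after translation of their short reading frames, and some have been followed in colon tumours because they lie near the MYC gene or mark proliferating cells. The 9 genes HCP5, NEAT1, MALAT1, GAS5, SNHG1, PVT1, UCA1, CCAT1 and H19 were taken by their symbols from the transcript tables of HT-29 cells, and the transcripts of each gene were summed. They are 9 of 27685 genes and hold 14 of 63714 transcripts. All 9 were found, lie on 1 chromosome each, and passed the filter on low reads, so none was lost for too few reads. HCP5 and H19 nevertheless had fewer than 100 reads in most or all libraries, and their values are the least certain of the set.

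HT-29 is a human colorectal adenocarcinoma line used as a model of colonic epithelium. The question asked of it was how the transcriptome differs when the cells make TRIM40, an E3 ubiquitin ligase that the parent line hardly expresses. Cells labelled wild type carried a control vector, and cells labelled as overexpressing TRIM40 carried N-terminally Myc-tagged TRIM40 from a retroviral vector with puromycin selection. Neither condition received a further treatment, and whether either line is 1 clone was not given in the sources used here. There were 2 independent experiments with 1 library per condition in each, 4 libraries in all, of 60954602 to 67424698 reads.

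TRIM40 itself had 0 reads in both control libraries and, as labelled, 272646 and 110665 reads in the libraries of Myc-TRIM40 cells. The 10 epithelial markers were present in every library with a summed level of 7152 to 9919 FPKM (reads scaled by transcript length and sequencing depth), although CDX1 and CDX2 were low, at 0.323 to 1.39 FPKM. The 7 markers of blood, vessel, stromal and muscle cells summed to 2.17 to 3.54 FPKM. CD3E and COL3A1 were at 0 in every library, whereas CD14 had 1.43 to 2.61 FPKM and COL1A1 0.297 to 0.945 FPKM. CD14 was above both CDX1 and CDX2 in each library. The control library of experiment 2 stood apart in transcript length. Against the control library of experiment 1, the median log2 ratio of FPKM + 1 was 0.49 for genes under 1000 bases and −0.46 for genes of 4000 bases and over, whereas for the Myc-TRIM40 libraries of the same experiments it was 0.11 and −0.10. Within experiment 2 the median log2 ratio of Myc-TRIM40 to control was −0.42 in the shortest class, −0.23 from 1000 to 2000 bases, 0.09 from 2000 to 4000 bases and 0.40 in the longest class. In experiment 1 the same 4 medians were −0.04, 0.00, 0.01 and 0.03. Every value for experiment 2 is therefore given beside that of experiment 1, and its part in each result was not tested.

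The levels of the 9 RNAs spanned more than 3 orders of magnitude per unit length. GAS5 was the highest, with a mean of 189.3 FPKM over the 4 libraries, followed by SNHG1 at 144.5, NEAT1 at 123.3, PVT1 at 23.2, MALAT1 at 19.3, CCAT1 just below it, UCA1 at 4.39, HCP5 at 0.670 and H19 at 0.149 FPKM. The ranges over the 4 libraries of neighbours in this order overlapped for GAS5 and SNHG1, SNHG1 and NEAT1, PVT1 and MALAT1, MALAT1 and CCAT1, and HCP5 and H19. NEAT1 was separated from PVT1, CCAT1 from UCA1, and UCA1 from HCP5. GAS5 ranked between 310 and 423 among all genes by FPKM, whereas H19 ranked between 13542 and 14803. Together the 9 genes took 0.0834% to 0.121% of the reads of a library.

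**Figure D1:**
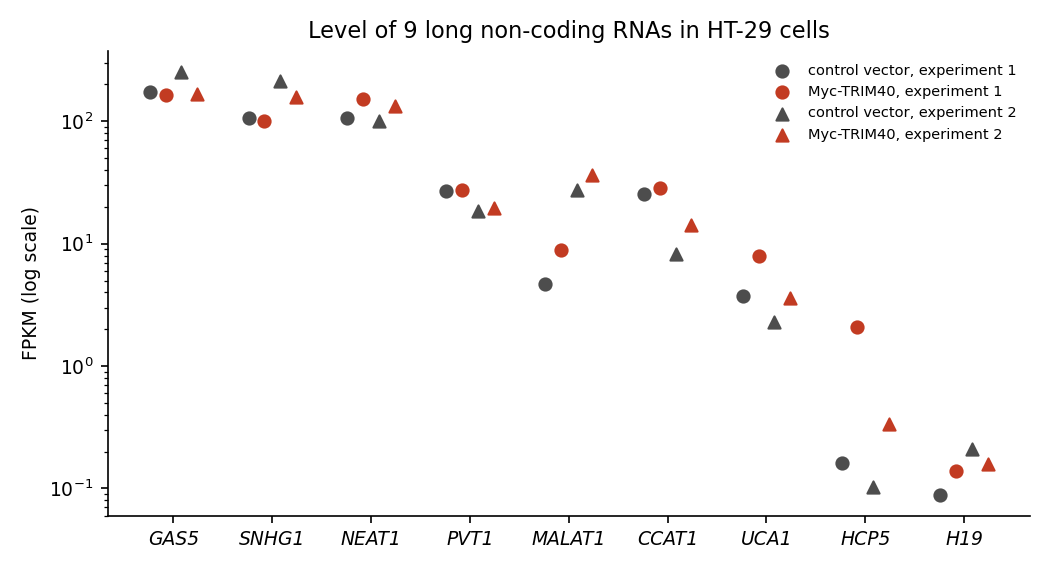
Level of each long non-coding RNA in FPKM, on a log scale, in the 4 libraries (circles, experiment 1; triangles, experiment 2; grey, control vector; red, Myc-TRIM40). The order runs from GAS5, at 164.0 to 253.4 FPKM, to H19, at 0.0893 to 0.209 FPKM, and the red point of HCP5 in experiment 1 stands far above its other 3.

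None of the 9 passed an adjusted p of 0.05 between conditions (edgeR's quasi-likelihood test, Benjamini-Hochberg adjustment over 14868 genes, experiment as a block), where 0.0605% of all genes did. At an unadjusted p of 0.05, HCP5, UCA1 and MALAT1 passed, all higher in Myc-TRIM40 cells, 3 of 9 against a background of 3.41% of genes in that direction. DESeq2 called HCP5 alone, 1 of 9 against a background of 0.363%. The median log2 fold change was 0.38 over the 9 genes and 0.04 over all genes tested, and 5 of the 9 (55.6%) were above 0, as were 54.9% of all genes. Neither median takes transcript length into account. The ratio of FPKM + 1 was above 1 in both experiments for 6 members, HCP5, NEAT1, MALAT1, PVT1, UCA1 and CCAT1, and 37.3% of genes did the same. It was below 1 in both for the pair of snoRNA host genes, GAS5 and SNHG1, where the background was 18.8%. No member reached a 1.5-fold ratio in both experiments, which 0.545% of genes did in either direction. In bulk RNA, a change in the number of cells that make an RNA and a change in the amount per cell cannot be told apart.

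**Figure D2:**
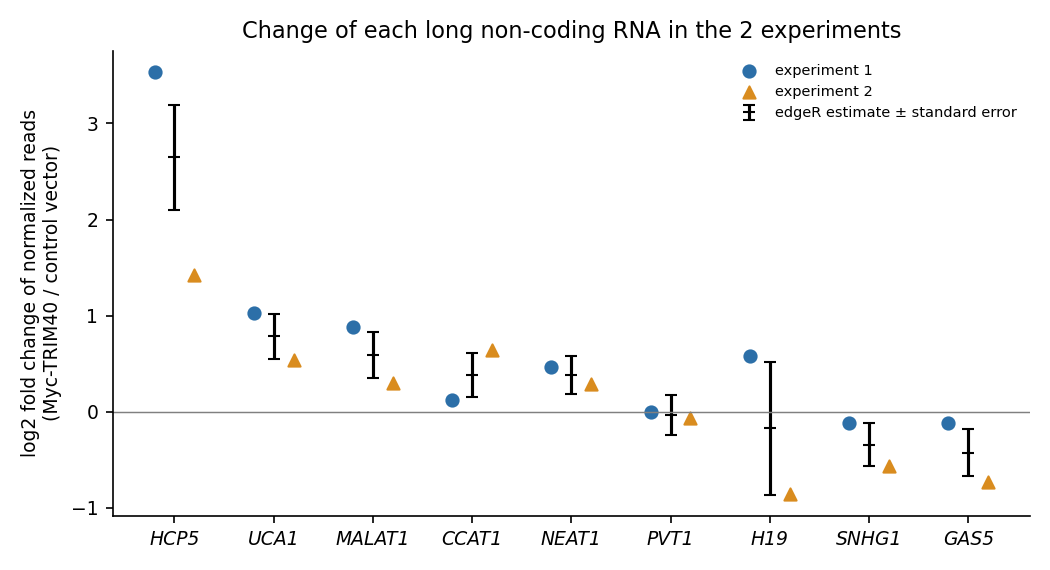
Log2 fold change of TMM-normalized reads, Myc-TRIM40 over control vector, for each RNA in experiment 1 (circles) and experiment 2 (triangles), with the edgeR estimate and its standard error (black). HCP5 is the highest in both experiments, the experiments lie on opposite sides of 0 for H19, and PVT1 lies close to 0 in each.

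HCP5 is an RNA of the major histocompatibility complex class I region, between the stress ligand genes MICA and MICB, and is known for its expression in immune cells. The files (hg19) place it on chromosome 6 from 31430957 to 31433586, with 1 transcript of 2539 bases and no other annotated gene overlapping it. It had 26 reads in the control and 331 in the experiment 1 library of Myc-TRIM40 cells, and 19 and 55 in those of experiment 2. Its levels were 0.161 and 2.08 FPKM in experiment 1 and 0.102 and 0.337 FPKM in experiment 2. Both Myc-TRIM40 libraries were thus above both controls, and the Myc-TRIM40 library of experiment 1 stood far above the rest. Only HCP5 and NEAT1 of the 9 were non-overlapping in this direction, where the background was 15.2% of genes.

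After normalization HCP5 reads were 12.4-fold higher in experiment 1 (95% exact interval 8.31 to 19.3, counting error only) and 2.87-fold higher in experiment 2 (1.68 to 5.12). The 2 intervals do not overlap, so the sizes differed by more than counting error between experiments. Over both experiments the log2 fold change was 2.65 ± 0.55 (SE), with an unadjusted p of 0.00108 and an adjusted p of 0.351 in edgeR's quasi-likelihood test. DESeq2 gave 2.59 with an adjusted p of 0.0302, and across the fits tried the adjusted p ran from 0.0302 to 0.9998. On the scale of log2(FPKM + 1), which compresses so low a gene, the differences were 1.41 and 0.28. Neither of its neighbours passed the test. MICA had 13.8 and 16.4 FPKM in experiment 1 and 18.6 and 15.9 FPKM in experiment 2, with a log2 fold change of −0.04 ± 0.23 (SE). MICB had 0.313 and 0.612 FPKM in experiment 1 and 0.312 and 0.354 FPKM in experiment 2, with a log2 fold change of 0.49 ± 0.43 (SE).

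The genes nearest to HCP5 in pattern over the 4 libraries were DDX60, a DExD/H-box RNA helicase, HERC6, a HECT-domain protein, and IFIT1, a protein that binds the 5′ ends of foreign RNA. Likeness was the Euclidean distance between log2 CPM values centred on each gene, and the distances were 0.31, 0.31 and 0.43 among 11754 candidates whose median distance was 3.13. These 3 were the only genes within 0.5. DDX60 had 1.46 and 15.5 FPKM in experiment 1 and 0.792 and 2.19 FPKM in experiment 2. HERC6 had 1.88 and 28.8 FPKM in experiment 1 and 1.68 and 4.34 FPKM in experiment 2. IFIT1 had 2.03 and 34.3 FPKM in experiment 1 and 2.00 and 5.06 FPKM in experiment 2. Like HCP5, each was highest in the Myc-TRIM40 library of experiment 1, next in that of experiment 2, and lowest in the controls. This shared order follows from their selection by likeness to HCP5 over these same libraries. None of them passed the adjusted p in edgeR's quasi-likelihood test.

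**Figure D3:**
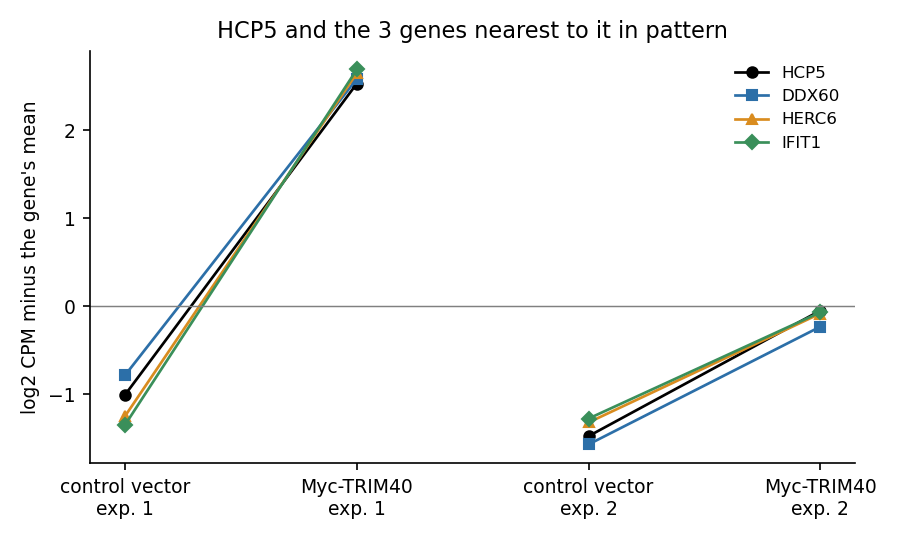
Log2 CPM minus the mean of each gene over the 4 libraries, for HCP5 (black circles), DDX60 (squares), HERC6 (triangles) and IFIT1 (diamonds), with lines joining control vector to Myc-TRIM40 within an experiment. HCP5 goes from −1.005 to 2.53 in experiment 1 and from −1.48 to −0.05 in experiment 2, and the other 3 genes run close to it.

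Because these genes share a pattern, the letters around their starts are shown. The first sequence is the window of HCP5 from 250 bases before to 50 bases after its annotated start, with the transcribed bases in capitals. The other 2 are the stretches of the IFIT1 and DDX60 windows that hold GAAA, any 2 bases and GAAA again, the core letters of the interferon-stimulated response element, on either strand, with the matches in capitals. All come from RefSeq on GRCh38.p14, not on the hg19 coordinates of the files.
HCP5 promoter window (chr6:31462930-31463229, plus strand): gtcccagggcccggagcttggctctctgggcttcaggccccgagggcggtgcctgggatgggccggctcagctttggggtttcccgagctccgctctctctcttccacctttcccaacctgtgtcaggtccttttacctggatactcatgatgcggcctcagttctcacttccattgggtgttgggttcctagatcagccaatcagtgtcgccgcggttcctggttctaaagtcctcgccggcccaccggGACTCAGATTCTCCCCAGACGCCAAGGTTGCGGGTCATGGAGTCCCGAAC
IFIT1 promoter stretch (chr10:89392492-89392544, plus strand): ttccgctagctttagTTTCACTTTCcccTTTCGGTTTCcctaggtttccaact
DDX60 promoter stretch (chr4:168318781-168318855, minus strand): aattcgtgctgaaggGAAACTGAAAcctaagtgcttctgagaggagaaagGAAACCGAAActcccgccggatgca

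The IFIT1 and DDX60 windows held 2 matches each, and the HCP5 and HERC6 windows held 0. Of 35116 promoter windows of the same length, 3.57% held at least 1. TTC, any 3 bases and GAA, the core of the gamma-activated site, was searched in the same way on both strands and was found in 7.66% of windows, with 1 match in DDX60 and 0 in HCP5, IFIT1 and HERC6. A window was found for 5 of the 9 RNAs (HCP5, MALAT1, GAS5, SNHG1 and H19), and none of these held a match to either motif. The window of GAS5, however, lies upstream of the start of the counted transcript. H19 has more than 1 annotated start but only 1 window. Whether that window covers the start of NR_002196, the transcript with the most H19 reads, was not checked.

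NEAT1 is the RNA scaffold of paraspeckles, nuclear bodies in which RNA-binding proteins gather. The short transcript ends in a usual poly(A) tail, and the long transcript, which builds the body, ends in an RNA triple helix made by U-rich elements and an encoded A-rich tract. MALAT1, its neighbour on the chromosome, is an RNA of nuclear speckles with a 3′ end of the same kind. The library kit captures RNA by its poly(A) tail, and how completely it captured ends of this kind was not measured. The 3′ ends are shown because the reads divide between these transcripts. For the long NEAT1 and mature MALAT1 RNAs, capitals mark the A-rich tract and each match to TTTT, any 1 base, then CTTTT. That pattern marked 1 U-rich element in NEAT1 and 2 in MALAT1. A U-rich element with other letters stays in lower case. For the short NEAT1 RNA, capitals mark the poly(A) signal AATAAA. That stretch is bases 3666 to 3751 of the long GENCODE transcript, and the counted short transcript has 3735 bases. Judged by these lengths, its last letters lie past the end of the short RNA. The stretches were read from the GENCODE transcripts of the long NEAT1 RNA and of MALAT1 (GRCh38).
NEAT1 end of the long transcript (chr11:65445431-65445540, plus strand): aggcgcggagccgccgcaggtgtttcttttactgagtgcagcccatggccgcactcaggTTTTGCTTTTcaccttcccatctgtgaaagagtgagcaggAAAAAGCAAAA
MALAT1 mature 3′ end (chr11:65506007-65506116, plus strand): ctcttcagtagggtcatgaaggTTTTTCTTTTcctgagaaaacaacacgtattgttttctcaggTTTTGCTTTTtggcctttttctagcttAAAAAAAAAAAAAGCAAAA
NEAT1 end of the short transcript (chr11:65426463-65426548, plus strand): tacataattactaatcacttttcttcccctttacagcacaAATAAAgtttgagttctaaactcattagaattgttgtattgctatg

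NEAT1 lies on chromosome 11 from 65190269 to 65213009 (hg19). It had 25745 reads in the control and 36603 in the experiment 1 library of Myc-TRIM40 cells, and 26054 and 32086 in those of experiment 2. Its levels were 107.1 and 152.3 FPKM in experiment 1 and 100.1 and 133.5 FPKM in experiment 2. The controls lay at 103.6 ± 4.94 FPKM and the Myc-TRIM40 libraries at 142.9 ± 13.3 FPKM (SD, n = 2 each), without overlap. In normalized reads the ratio was 1.38 (1.36 to 1.41) in experiment 1 and 1.22 (1.20 to 1.24) in experiment 2, with 95% exact intervals for counting error only. Over both experiments the log2 fold change was 0.38 ± 0.20 (SE), with an adjusted p of 0.888 in edgeR's quasi-likelihood test. Its place among genes of like length in experiment 2 depended on the class. Weighted by reads over all libraries its length was 4078 bases, and among genes of 4000 bases and over its ratio of FPKM + 1 exceeded those of 97.6% in experiment 1 and 51.1% in experiment 2. Among genes of 2000 to 4000 bases, which hold the length of its main transcript, the values were 95.8% and 89.6%.

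Nearly all NEAT1 reads were assigned to the short transcript of 3735 bases. The long transcript of 22741 bases took 3.31% (95% Wilson interval 3.09 to 3.53) and 3.02% (2.85 to 3.20) of NEAT1 reads in the control and Myc-TRIM40 libraries of experiment 1. In experiment 2 it took 0.453% (0.378 to 0.542) and 0.305% (0.251 to 0.372). In reads these were 851, 1107, 118 and 98. The share was lower in Myc-TRIM40 cells in each experiment, although the intervals of the conditions overlapped in experiment 1. The 2 experiments differed from each other far more than the conditions did. The transcripts overlap over their shared 5′ part, where reads are divided by estimation, so the intervals understate the error.

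The 13 paraspeckle proteins tested gave no call in either direction (edgeR, quasi-likelihood), and their median log2 fold change was −0.05, against 0.04 for all genes. HNRNPK, a poly(C)-binding protein, was the only one above 0, at 0.02 ± 0.19 (SE). NUDT21, a subunit of the cleavage factor that sets poly(A) sites, followed at −0.00 ± 0.22 (SE). DAZAP1, an RNA-binding protein, was the lowest at −0.23 ± 0.22 (SE), and EWSR1, also an RNA-binding protein, was next at −0.13 ± 0.19 (SE). Beside NEAT1 and MALAT1 on chromosome 11, FRMD8 was likewise within its error, at 0.18 ± 0.21 (SE). The genes nearest to NEAT1 in pattern were HARBI1, CXCL16 and OTUD5, at distances of 0.04, 0.04 and 0.06, but 3239 of 11753 candidates lay within 0.5, so many genes had a like pattern.

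MALAT1 lies on chromosome 11 from 65265209 to 65273983 (hg19). It had 2453 reads in the control and 4637 in the experiment 1 library of Myc-TRIM40 cells, and 16357 and 20309 in those of experiment 2. Its levels were 4.68 and 8.87 FPKM in experiment 1 and 27.4 and 36.1 FPKM in experiment 2. The Myc-TRIM40 library was the higher in each experiment, but both libraries of experiment 2 stood above both of experiment 1, so the conditions overlapped. After normalization the ratio was 1.84 (95% exact interval 1.75 to 1.93) in experiment 1 and 1.23 (1.21 to 1.26) in experiment 2. Fitted together, the experiments gave a log2 fold change of 0.59 ± 0.24 (SE), with an unadjusted p of 0.0366 and an adjusted p of 0.888 in edgeR's quasi-likelihood test. Its ratio exceeded those of 99.0% of the genes of its length class in experiment 1 and of 47.3% in experiment 2.

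MALAT1 differed more between experiments than between conditions. The term for experiment in the same edgeR fit, examined after seeing the data, gave a level 5.22-fold higher in experiment 2, a log2 fold change of 2.38 ± 0.25 (SE) with an adjusted p of 0.00786 (quasi-likelihood test, Benjamini-Hochberg). MALAT1 was the only one of the 9 called for that term, where 0.531% of all genes were. At an unadjusted p of 0.05 in that test, 6 of the 9 passed (HCP5, MALAT1, SNHG1, PVT1, UCA1 and CCAT1), against 28.9% of all genes. The adjusted p was 0.0533 for CCAT1, 0.0642 for SNHG1 and 0.0656 for UCA1, so a difference between experiments was not particular to MALAT1. Its reads were also assigned to different annotated transcripts in the 2 experiments. Variant 1 (NR_002819, 8775 bases) took 17.4% (95% Wilson interval 15.96 to 18.96) and 8.58% (7.81 to 9.42) of MALAT1 reads in the control and Myc-TRIM40 libraries of experiment 1, and 66.0% (65.3 to 66.7) and 96.7% (96.5 to 97.0) in those of experiment 2. Variant 3 (NR_144568, 8298 bases) took the rest. Variant 2 had 0 reads in every library, with a 95% Wilson interval up to 0.156% in the control library of experiment 1. The share assigned to variant 1 was thus the lower in Myc-TRIM40 cells in experiment 1 and the higher in experiment 2. All 3 variants have the same ends and overlap, and reads are divided between them by estimation, so these intervals understate the error. No gene came within 0.5 of the MALAT1 pattern. SMN1, which assembles spliceosomal particles and has a near-identical copy that can share its reads, was nearest at 0.86, before SVIP at 0.97 and TGOLN2, a trans-Golgi protein, at 1.02.

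**Figure D4:**
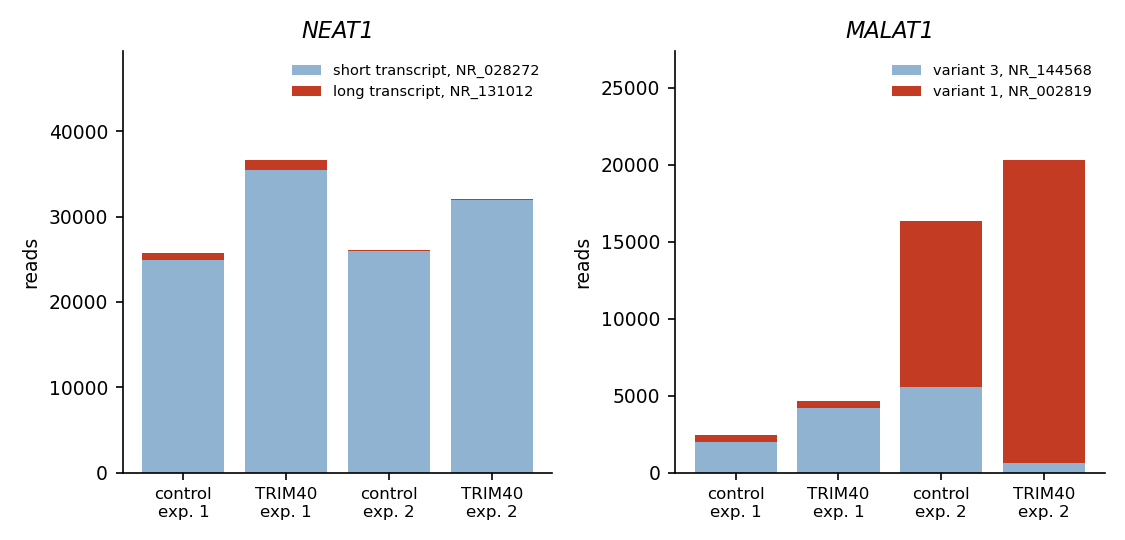
Reads assigned to each annotated transcript of NEAT1 (left) and MALAT1 (right) in the 4 libraries, as stacked bars. The long NEAT1 transcript has 851 and 1107 reads in experiment 1 and 118 and 98 in experiment 2, and MALAT1 variant 1 takes 8.58% to 17.4% of reads in experiment 1 and 66.0% to 96.7% in experiment 2.

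GAS5 and SNHG1 are host genes whose introns are processed into snoRNAs, the guides of ribosomal RNA modification. Their spliced RNAs belong to the 5′ terminal oligopyrimidine family, are bound by ribosomes and are removed by nonsense-mediated decay, so that their level is known to rise when translation is slowed. The first bases of each RNA are shown because this family is defined there. For GAS5 it is the first exon of the GENCODE transcript (GRCh38) paired with the counted RefSeq transcript and equal to it in length. For SNHG1 it is the first 50 bases from the RefSeq start (GRCh38.p14), which lies 3 bases inside that of the counted transcript as judged by the distance to SNORD26 in each build. Capitals mark the longest pyrimidine run starting within the first 10 bases.
GAS5 first exon (chr1:173867960-173867987, minus strand): TTTCgaggtaggagtcgactcctgtgag
SNHG1 first 50 bases (chr11:62855836-62855885, minus strand): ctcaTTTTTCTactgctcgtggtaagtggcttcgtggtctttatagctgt
The run was 4 bases at positions 1 to 4 in GAS5 and 7 bases at positions 5 to 11 in SNHG1, counted from 1 at the first base shown. A run at least as long, starting anywhere within the first 10 bases, was held by 41.9% and 9.57% of all RefSeq windows respectively. How many windows have such a run at the first base, as GAS5 does, was not counted. The starts as shown do not by themselves mark either RNA as a member of the family. A run of the length seen in GAS5 is common within the first 10 bases, and the SNHG1 run does not begin at the first base shown. Whether these annotated starts are the ones used in HT-29 cells was not tested.

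GAS5 lies on chromosome 1 from 173833039 to 173837125 (hg19), with 1 transcript of 632 bases. It had 6872 reads in the control and 6500 in the experiment 1 library of Myc-TRIM40 cells, and 11112 and 6744 in those of experiment 2. Its levels were 173.8 and 164.0 FPKM in experiment 1 and 253.4 and 166.2 FPKM in experiment 2. Both Myc-TRIM40 libraries were below both controls, as were those of 6.48% of genes, and the control of experiment 2 stood above the other 3. The normalized ratio was 0.921 (95% exact interval 0.890 to 0.953) in experiment 1 and 0.601 (0.583 to 0.620) in experiment 2. The log2 fold change was −0.43 ± 0.24 (SE), with an adjusted p of 0.888 in edgeR's quasi-likelihood test. GAS5 was the only member at least 1.5-fold lower in experiment 2, as were 2.88% of genes. Against the median of genes under 1000 bases its log2 ratio of FPKM + 1 was −0.05 in experiment 1 and −0.18 in experiment 2, compared with −0.08 and −0.61 before that median was taken off.

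SNHG1 lies on chromosome 11 from 62619460 to 62623360 (hg19), with 1 transcript of 1118 bases. It had 7464 reads in the control and 7070 in the experiment 1 library of Myc-TRIM40 cells, and 16536 and 11280 in those of experiment 2. Its levels were 106.7 and 100.8 FPKM in experiment 1 and 213.1 and 157.2 FPKM in experiment 2. The Myc-TRIM40 library was the lower in each experiment, but both libraries of experiment 2 were above both of experiment 1. In normalized reads the ratio was 0.922 (95% exact interval 0.893 to 0.953) in experiment 1 and 0.676 (0.660 to 0.692) in experiment 2. Over both experiments the log2 fold change was −0.34 ± 0.23 (SE), with an adjusted p of 0.888 in edgeR's quasi-likelihood test. Against the median of genes of 1000 to 2000 bases its log2 ratio of FPKM + 1 was −0.08 in experiment 1 and −0.21 in experiment 2.

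Most other host genes had a value of the same sign. Besides GAS5 and SNHG1, 18 were tested, and 0 passed the adjusted p in edgeR's quasi-likelihood test or in DESeq2, with 2 lower at an unadjusted p of 0.05 in edgeR, where 1.13% of all genes were. Their median log2 fold change was −0.35, against 0.04 for all genes, and only SNHG4 was above 0. In the same edgeR fit the median was −0.31 for genes under 1000 bases and −0.19 for those of 1000 to 2000 bases. The ratio of FPKM + 1 was below 1 for 11 of the 18 in experiment 1 and for 17 in experiment 2, and 7 were at least 1.5-fold lower in experiment 2 (2.88% of all genes) against 1 in experiment 1 (0.659%). The host RNAs are short, with a median of 996.5 bases. With the median of each length class taken off, their median log2 ratio was −0.06 in experiment 1 and −0.22 in experiment 2, and 10 and 15 of the 18 lay below their class. SNHG19 was the lowest, at −0.74 ± 0.27 (SE), with 21.6 and 18.3 FPKM in experiment 1 and 51.0 and 24.3 FPKM in experiment 2. DANCR, an inhibitor of differentiation in progenitor cells, was next at −0.68 ± 0.23 (SE), with 84.1 and 44.5 FPKM in experiment 1 and 99.3 and 81.9 FPKM in experiment 2. At the other end stood SNHG4 at 0.15 ± 0.25 (SE) and SNHG10 at −0.12 ± 0.23 (SE). Their log2 ratios of FPKM + 1 were −0.20 and 0.65 for SNHG4 in experiments 1 and 2, and 0.17 and −0.28 for SNHG10.

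**Figure D5:**
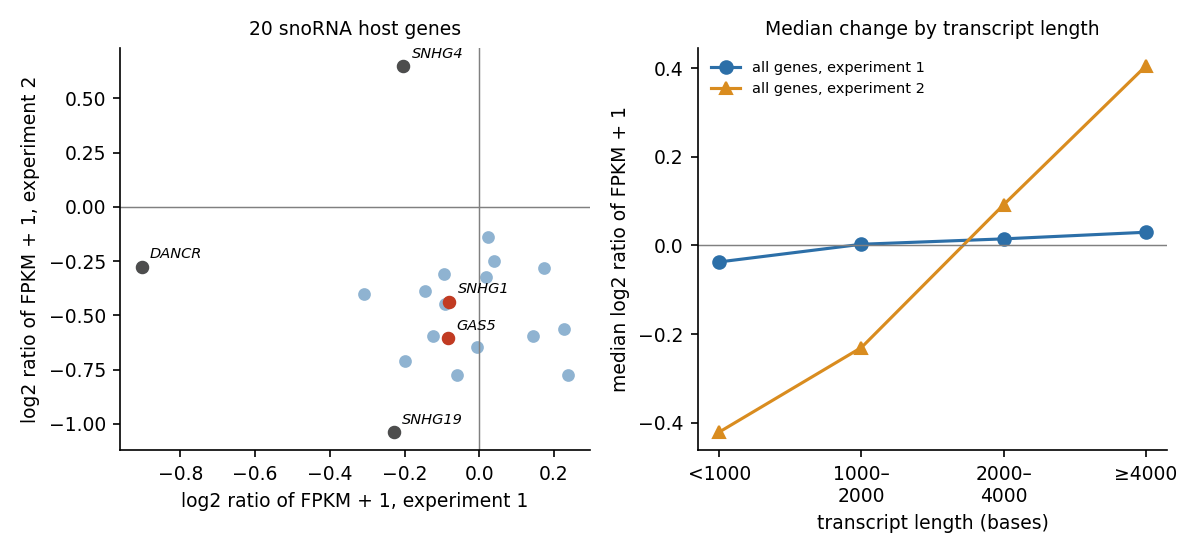
Left, log2 ratio of FPKM + 1 (Myc-TRIM40 over control vector) of 20 snoRNA host genes in experiment 1 (horizontal) and experiment 2 (vertical), with GAS5 and SNHG1 in red. Right, median of the same ratio over all genes in 4 classes of transcript length, for experiment 1 (circles) and experiment 2 (triangles). In experiment 2, 19 of the 20 host genes lie below 0, and the median over all genes runs from −0.42 in the shortest class to 0.40 in the longest.

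The snoRNAs inside these hosts are shorter than the RNAs that such libraries usually retain, and reads of a snoRNA and of its unspliced host cannot be told apart here. There were 11 inside GAS5 and 8 inside SNHG1, each with at least 10 reads in some library. Their summed reads equalled 13.1% and 12.2% of GAS5 reads in experiment 1 and 16.5% and 22.2% in experiment 2, for control and Myc-TRIM40. For SNHG1 the values were 12.4% and 10.5% in experiment 1 and 8.64% and 12.5% in experiment 2. After normalization, 7 of 11 in GAS5 and 8 of 8 in SNHG1 were lower in the experiment 1 library of Myc-TRIM40 cells, and 4 of 11 and 1 of 8 in that of experiment 2. Summed and not normalized, the snoRNA reads in GAS5 were 897 and 790 in experiment 1 and 1830 and 1497 in experiment 2. In SNHG1 they were 928 and 745, then 1429 and 1413, so every sum was the lower in Myc-TRIM40 cells. The snoRNAs with the most reads, SNORD47 in GAS5 and SNORD22 in SNHG1, named after their values were seen, were lower too in experiment 2, at 754 and 537 reads and at 710 and 523 reads. The annotated span of GAS5 also overlaps GAS5-AS1 and the long spans given to FAM72C and SRGAP2D, and whether counting used the strand was not given in the sources used here.

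Factors of nonsense-mediated decay, the pathway that degrades the host RNAs, gave 0 calls among 10 tested (edgeR, quasi-likelihood), and their median log2 fold change was 0.09. SMG1, the kinase of UPF1, was highest at 0.49 ± 0.27 (SE), with log2 ratios of FPKM + 1 of 0.06 in experiment 1 and 0.92 in experiment 2. UPF3B and UPF3A, which link the exon junction complex to UPF2, were lowest at −0.19 ± 0.21 (SE) and −0.13 ± 0.21 (SE). Beside the hosts on their chromosomes, ZBTB37 was at 0.36 ± 0.43 (SE) and SLC3A2, an amino acid transporter subunit, at −0.04 ± 0.24 (SE). In pattern, GAS5 was nearest to EIF4EBP1, a translation repressor, DDT, a tautomerase, and EIF3K, an initiation factor subunit, each at a distance of 0.03. SNHG1 was nearest to TMEM14C, PET117 and ANAPC16, each also at 0.03. Here too the neighbourhoods were crowded, with 3015 and 2004 candidates within 0.5.

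PVT1 and CCAT1 flank MYC, the proliferation-driving transcription factor, on chromosome 8, and both are known as RNAs of amplified or transcriptionally active MYC loci in colon cancer. The files (hg19) place CCAT1 from 128219627 to 128231513 and PVT1 from 128806779 to 129113499. PVT1 had 3290 reads in the control and 3362 in the experiment 1 library of Myc-TRIM40 cells, and 2503 and 2422 in those of experiment 2. Its levels were 27.1 and 27.6 FPKM in experiment 1 and 18.6 and 19.4 FPKM in experiment 2. The libraries of each experiment were close to each other and the conditions overlapped. After normalization the ratio was 0.995 (95% exact interval 0.948 to 1.04) in experiment 1 and 0.959 (0.906 to 1.01) in experiment 2, and both intervals hold 1. Fitted together, the experiments gave a log2 fold change of −0.03 ± 0.21 (SE), with an adjusted p of 0.985 in edgeR's quasi-likelihood test, and its sign depended on the scale. The microRNA MIR1204 inside PVT1 had 10 to 19 reads in a library.

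CCAT1 had 4428 reads in the control and 4951 in the experiment 1 library of Myc-TRIM40 cells, and 1607 and 2536 in those of experiment 2. Its levels were 25.3 and 28.2 FPKM in experiment 1 and 8.28 and 14.1 FPKM in experiment 2. The Myc-TRIM40 library was the higher in each experiment, but both libraries of experiment 1 were above both of experiment 2. The normalized ratio was 1.09 (95% exact interval 1.05 to 1.13) in experiment 1 and 1.56 (1.47 to 1.67) in experiment 2. The log2 fold change was 0.38 ± 0.23 (SE), with an adjusted p of 0.888 in edgeR's quasi-likelihood test. CCAT1 was the only member at least 1.5-fold higher in experiment 2, as were 8.54% of genes. Its ratio exceeded those of 97.2% of genes of 2000 to 4000 bases there and those of 77.9% in experiment 1, the reverse of the order seen for HCP5, UCA1 and MALAT1.

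MYC itself had 153.8 and 147.2 FPKM in experiment 1 and 117.8 and 125.8 FPKM in experiment 2, with a log2 fold change of −0.06 ± 0.20 (SE). POU5F1B, a retrogene between CCAT1 and MYC whose reads could be shared with its parent gene, was at 0.60 ± 0.55 (SE). PVT1 was nearest in pattern to TMC6, FAM129B and ZNF346, at distances of 0.04, 0.04 and 0.05, with 3499 candidates within 0.5. CCAT1 was nearest to BCL9L, a β-catenin cofactor, PLXNA3, a semaphorin receptor, and KMT2C, a histone methyltransferase, at 0.05, 0.06 and 0.06, with 692 candidates within 0.5.

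UCA1 was first described in urothelial carcinoma and is made by several epithelial tumours. The files (hg19) place it on chromosome 19 from 15939757 to 15947131, with 1 transcript of 2314 bases and no overlapping gene. It had 546 reads in the control and 1144 in the experiment 1 library of Myc-TRIM40 cells, and 369 and 540 in those of experiment 2. Its levels were 3.77 and 7.88 FPKM in experiment 1 and 2.30 and 3.63 FPKM in experiment 2. The Myc-TRIM40 library was the higher in each experiment, although that of experiment 2 lay just below the control of experiment 1. In normalized reads the ratio was 2.04 (95% exact interval 1.84 to 2.26) in experiment 1 and 1.45 (1.27 to 1.66) in experiment 2. Over both experiments the log2 fold change was 0.78 ± 0.24 (SE), with an unadjusted p of 0.00990 and an adjusted p of 0.888 in edgeR's quasi-likelihood test. HCP5, MALAT1 and UCA1 were the members at least 1.5-fold higher in experiment 1, as were 2.78% of genes.

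UCA1 kept a high place among genes of its length in both experiments, above 98.4% of them in experiment 1 and 93.1% in experiment 2. Its neighbour CYP4F11, a fatty acid hydroxylase, had 60 and 165 reads in experiment 1 and 50 and 89 in experiment 2. The log2 fold change of CYP4F11 was 1.12 ± 0.38 (SE), with an unadjusted p of 0.0167 and an adjusted p of 0.888 in edgeR's quasi-likelihood test, and it was the only 1 of the 12 chromosomal neighbours at an unadjusted p of 0.05. CYP4F12, from the same cluster, was at 0.35 ± 0.33 (SE). The nearest genes in pattern were STAT2, a transcription factor of interferon signalling, TP53INP2, an autophagy protein, and ADM2, a peptide hormone, at distances of 0.10, 0.13 and 0.13, with 122 candidates within 0.5. STAT2 had 5.88 and 12.7 FPKM in experiment 1 and 3.58 and 5.33 FPKM in experiment 2.

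H19 is an imprinted RNA, abundant in fetal tissue and host of the microRNA MIR675, and lies near the growth factor gene IGF2. The files (hg19) place it on chromosome 11 from 2016406 to 2022696. It had 13 reads in the control and 21 in the experiment 1 library of Myc-TRIM40 cells, and 34 and 18 in those of experiment 2. Its levels were 0.0893 and 0.139 FPKM in experiment 1 and 0.209 and 0.160 FPKM in experiment 2. The Myc-TRIM40 library was the higher in experiment 1 and the lower in experiment 2, and the conditions overlapped. After normalization the ratio was 1.57 (95% exact interval 0.752 to 3.42) in experiment 1 and 0.525 (0.279 to 0.955) in experiment 2. Fitted together, the experiments gave a log2 fold change of −0.17 ± 0.69 (SE), the widest error of the 9, with an adjusted p of 0.972 in edgeR's quasi-likelihood test. The interval holds 1 in experiment 1 and lies below 1 in experiment 2, so the experiments gave no common direction. No library was at or below 3 reads, and reads were divided among transcripts unevenly, with 12, 21, 34 and 9 reads on NR_002196 and 1, 0, 0 and 9 on NR_131224 in control 1, Myc-TRIM40 1, control 2 and Myc-TRIM40 2.

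Around H19, IGF2 was at −0.17 ± 0.22 (SE) and the ribosomal protein gene MRPL23 at −0.38 ± 0.25 (SE). Their log2 ratios of FPKM + 1 were −0.29 and 0.10 for IGF2 in experiments 1 and 2, and 0.01 and −0.61 for MRPL23. HPGD, HIST1H1C and MT1G were nearest to H19 in pattern, at 0.09, 0.11 and 0.12, with 552 candidates within 0.5. HPGD, a prostaglandin-degrading enzyme, had 3.67 and 5.38 FPKM in experiment 1 and 7.47 and 4.58 FPKM in experiment 2, a pattern as mixed as that of H19.

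Other long non-coding RNAs described in colorectal cancer gave 0 calls among 16 tested of 24 listed (edgeR, quasi-likelihood). Their median log2 fold change was −0.09, with 6 above 0, against 0.38 for the 9 RNAs described here and 0.04 for all genes. These sets were not matched for transcript length. In the same fit the median ran from −0.31 for genes under 1000 bases to 0.20 for those of 4000 bases and over. The 9 were also chosen with earlier results of these data known. KCNQ1OT1, an antisense RNA of an imprinted domain, was highest at 0.52 ± 0.27 (SE), before TUG1 at 0.44 ± 0.22 (SE). CRNDE, which the study picked for display on these samples, was lowest at −0.76 ± 0.34 (SE). Its log2 ratios of FPKM + 1 were −0.03 in experiment 1 and −1.24 in experiment 2. CYTOR was next at −0.47 ± 0.28 (SE), with ratios of 0.06 and −0.83 in the same order.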

How the data were processed

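Poly(A) RNA of HT-29 cells was prepared with a TruSeq Stranded mRNA kit and sequenced on a NovaSeq system. Per the labels, the submitters' processing notes name HISAT2 2.1.0, StringTie 1.3.4d and hg19. The authors deposited, for each experiment, whole-number estimated read counts per RefSeq transcript, not normalized. FPKM, the count per length of transcript and per library size, was deposited for both experiments, and TPM was deposited for experiment 2 only, so that of experiment 1 was derived here by rescaling FPKM. Of the other deposited columns, transcript lengths and positions were used. Strand use in counting was not given in the sources used here.

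Counts were summed per gene and tested with edgeR 4.0.16 (glmQLFit and glmQLFTest, R 4.3.3, TMM factors, filterByExpr, 14868 genes), with the experiment as a block and Benjamini-Hochberg adjustment. The pairing comes from the replicate numbers of the labels and from the tables, each holding both conditions of 1 experiment, and same-numbered libraries deviated together (correlation 0.45 across genes). Standard errors were derived from the F statistic and the log2 fold change. The fit had 1 residual degree of freedom and a common dispersion of 0.0484. An exact permutation test was not used, since 0.333 is its smallest two-sided p with 2 libraries per condition. Normalized ratios are of TMM-scaled reads, with exact intervals at 95% that cover counting error only. Ratios of FPKM were taken after adding 1, and fold changes on that scale understate the change of low genes. Alternatives were DESeq2 1.42.0, limma 3.58.1, upper-quartile factors, no filter, no block, other pseudocounts, TPM, and each experiment left out. The experiment term, the sum of members with the genes inside them, and centring within length classes were chosen after seeing the data. Length is weighted by reads over transcripts, and classes hold genes tested with a mean FPKM of at least 1.

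All 9 members and their chromosomal neighbours are named, with the 3 genes nearest to each in log2 CPM (prior count 2), and the 2 highest and 2 lowest of each other list. Some results that this rule covers are not reported here. Members and lists were chosen with earlier results of these data known. The study picked CRNDE for display on these samples.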

Additional observations from a re-analysis of the deposited data

How the results depend on the processing

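Over the 9 members, other fits gave 51 values with the same direction and call, 1 that gained a call (HCP5 in DESeq2) and 2 that reversed in sign. The reversals were PVT1, at 0.045, and H19, at 0.0024, with limma on log2(FPKM + 1), and H19 ran from −0.86 without experiment 1 to 0.58 without experiment 2, whereas the 17 other values from 1 experiment alone kept their sign. The members called numbered 0 in edgeR and 1 in DESeq2. At an adjusted p of 0.05, edgeR with the pairing called 6 genes as higher and 3 as lower, and with no replicate block 0 and 0 (128 and 25 at an unadjusted p of 0.05). DESeq2 called 45 and 9, limma 3 and 0 (587 and 134 unadjusted), and edgeR with no filter 0 and 0 (343 and 104 unadjusted). The cause was not tested. For ratios of at least 1.5-fold in both experiments, 68 genes higher and 13 lower became 259 and 44 with a pseudocount of 0.1, 164 higher with TPM + 1, and 19 and 5 at 2-fold, and from 413 to 1270 higher and from 98 to 428 lower on 1 experiment alone. Of the members, 2 were higher with a pseudocount of 0.1 (HCP5 and UCA1), 2 with TPM + 1 (MALAT1 and UCA1), and 1 to 3 higher and 0 to 1 lower on 1 experiment alone. By share of FPKM rather than reads, the long NEAT1 transcript took 0.558%, 0.509%, 0.0740% and 0.0501%, in the order control and Myc-TRIM40 of experiment 1, then of experiment 2. Calls on 1 experiment alone were not made, for lack of replicates. HCP5 and H19 rest on the fewest reads, and every fold change on 2 experiments.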
